A study of Mus musculus with 6 samples.

Results

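Casein and milk protein genes were described in medullary thymic epithelial cells (mTEC): the 5 caseins Csn1s1, Csn1s2a, Csn1s2b, Csn2 and Csn3, the whey acidic protein gene Wap and the alpha-lactalbumin gene Lalba. These 7 genes were chosen by name, out of 43432 gene IDs in the deposited raw counts, and 6 of them had enough counts to be tested. RNA sequencing compared 3 libraries from Copa+/+ mice (WT) with 3 from CopaE241K/+ mice (MUT), all C57BL/6 and 4 weeks of age. Copa encodes a subunit of the COPI coat, which returns vesicles from the Golgi to the endoplasmic reticulum, and the MUT mice carry 1 changed and 1 normal allele. The labels do not say whether a library came from 1 animal or several, so the tests measure only how far these libraries spread, and part of that may be technical. WT and MUT libraries of the same number share the ending of their source names in the labels, which do not say what that ending stands for.

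Milk proteins are made by the secretory epithelium of the lactating mammary gland. Caseins bind calcium phosphate and are carried in milk as micelles, and Csn3 encodes kappa-casein, which keeps micelles from clumping. Wap is a whey protein of rodent milk, and alpha-lactalbumin is the regulatory partner of the enzyme that makes lactose. mTEC express such tissue-restricted genes outside their usual organ, which shows self antigens to developing T cells, and the casein cluster is one of the loci in which this ectopic expression has been studied. In the mammary gland, prolactin activates STAT5, which binds near milk protein genes.

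The caseins lay on chromosome 5 between 87666208 and 87932665 (GRCm38, GENCODE M21), a span of 266458 bp. Csn1s1 (ENSMUSG00000070702, plus strand) and Csn2 (ENSMUSG00000063157, minus strand) faced each other across 10045 bp. Csn1s2a (ENSMUSG00000061937) followed after 74936 bp, Csn1s2b (ENSMUSG00000061388) after another 19284 bp and Csn3 (ENSMUSG00000001622) after 101152 bp, all on the plus strand. Wap (ENSMUSG00000000381) lies on chromosome 11, 6635482 to 6638637, and Lalba (ENSMUSG00000022991) on chromosome 15, 98480400 to 98482721, both on the minus strand.

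RefSeq sequence (GRCm38.p6) upstream of the start was matched for 5 members. The STAT5 motif TTCNNNGAA, which reads the same on both strands, was searched in the 250 bases before the start. Csn2 and Csn1s1 each held 1 match, at bases -93 to -85 and -100 to -92, and Csn1s2a, Wap and Lalba held none. Of 32851 windows of this length, 7.02% held the motif. The letters TATAAA, searched on both strands, were in none of the 5 windows and in 12.4% of all. The matches are shown because they are the feature shared by the most abundant casein gene and its nearest casein neighbour, each with 10 bases on either side and the motif in capitals, 5′ to 3′ on the gene's strand. The Csn2 stretch, chr5:87699500-87699528 on the minus strand, lies before the RefSeq start but inside the first exon of a longer coding transcript in GENCODE. The Csn1s1 stretch is chr5:87666098-87666126 on the plus strand.
Csn2: tcacgtagacTTCTTGGAAttgaagggac
Csn1s1: tttgtaacaaTTCTTAGAAtttatgtaaa
The whole window of Csn1s1 (chr5:87665958-87666207, plus strand) and that of Csn1s2a (chr5:87774200-87774449, plus strand), the next most abundant casein gene after Csn2, are shown for comparison, with the motif in capitals where present.
Csn1s1 window: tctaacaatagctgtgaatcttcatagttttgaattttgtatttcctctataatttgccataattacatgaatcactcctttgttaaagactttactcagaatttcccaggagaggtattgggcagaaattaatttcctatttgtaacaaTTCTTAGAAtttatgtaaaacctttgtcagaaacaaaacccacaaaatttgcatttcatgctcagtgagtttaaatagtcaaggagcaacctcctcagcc
Csn1s2a window: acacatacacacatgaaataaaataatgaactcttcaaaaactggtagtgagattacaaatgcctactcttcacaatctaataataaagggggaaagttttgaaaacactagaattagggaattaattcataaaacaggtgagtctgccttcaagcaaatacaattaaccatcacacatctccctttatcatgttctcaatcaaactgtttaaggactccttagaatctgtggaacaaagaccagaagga
No binding was measured here, so a match is only a match of letters.

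Library totals ran from 19934513 to 23366238 counts, and the libraries had counts for 17174 to 24774 genes, the most in MUT 3. Genes of the mitochondrial chromosome took 9.14% to 21.3% of the counts of a library, so the libraries differed in composition. Levels are given as CPM, the counts scaled to library size. Copa stood at 400 ± 151 CPM over the WT libraries and 348 ± 43.6 CPM over the MUT libraries (SD, n = 3 each), and its level does not check a single amino acid change. The mTEC label was borne by Aire, the regulator of antigen display, at 929 to 1563 CPM, and by the epithelial marker Epcam at 628.7, 641.0 and 751.2 CPM in WT and 417.8, 441.4 and 593.2 CPM in MUT, lower in every MUT library. The chemokine gene Ccl21a had at most 4 counts in any library, though it has near-identical copies among which reads may be divided. Over the 9 marker lists for mTEC and other cell types, 0 of 56 tested genes passed edgeR's adjusted p of 0.05 and 0 had an unadjusted p under 0.05. The genotypes did not overlap for 4 of the 56, against 9.35% of all genes tested: Epcam and the macrophage marker Adgre1 were lower in MUT, and the endothelial marker Esam and Glycam1 higher. Glycam1, with 0, 5 and 1 counts in WT and 25, 32 and 16 in MUT, was tested through its MUT counts alone.

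Csn2, which encodes beta-casein, was among the most abundant transcripts of these cells, and the other milk protein genes were not. It had 42625, 71715 and 74354 counts in WT libraries 1, 2 and 3 and 42944, 75236 and 40568 in MUT libraries 1, 2 and 3. Per kb of the longest coding transcript, its mean level ranked 15 among 21461 coding genes, and its rank within single libraries lay between 12 and 17. Csn2 took 0.174% to 0.373% of each library and 96.9% to 98.4% of all counts of the 7 genes.

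Scaled to the length of the longest coding transcript, the mean levels over the 6 libraries were 2031 CPM per kb for Csn2, 26.8 for Csn1s2a, 11.9 for Csn3, 6.72 for Csn1s1, 1.63 for Wap, 0.454 for Csn1s2b and 0.0937 for Lalba. By the same measure Csn1s2a ranked 2343, Csn3 5108 and Csn1s1 7610 among the coding genes. Csn2 stood 75.8-fold above Csn1s2a, and their ranges over libraries did not overlap. Every other neighbouring pair in that order overlapped in range. The order was the same with the length of all annotated exons. The plot of counts by library shows this gap.

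**Figure D1:**
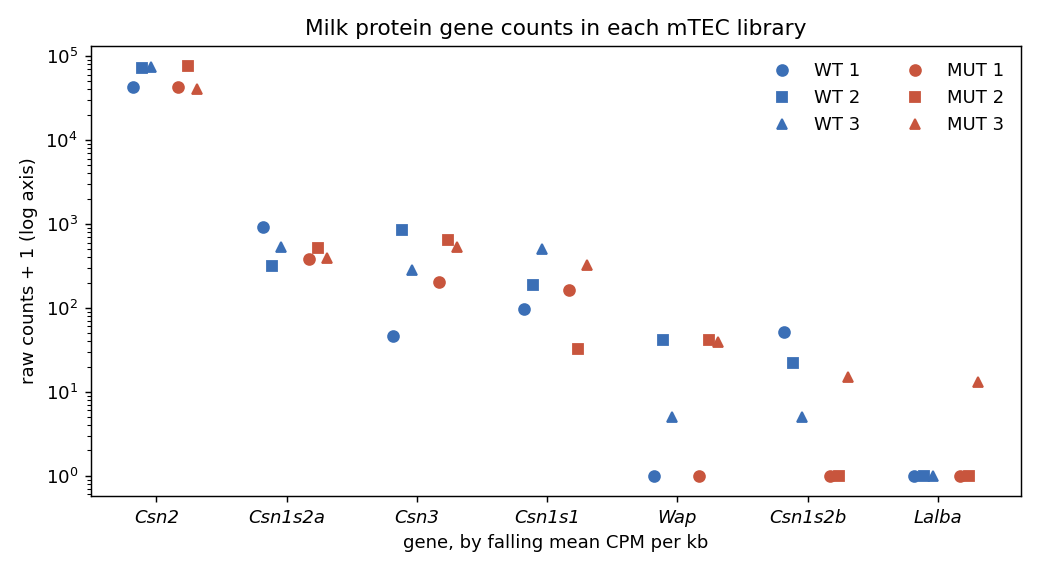
Raw counts plus 1 (log axis) of each milk protein gene in each library, WT in blue and MUT in red, with 1 symbol per replicate number. Csn2 lies between 40568 and 75236 counts in all 6 libraries, and no other member exceeds 922.

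Csn2 was also the steadiest member across libraries. In CPM it measured 2449, 3377 and 3272 in WT libraries 1, 2 and 3 and 2026, 3604 and 1466 in MUT. MUT 2 was the highest library and MUT 3 the lowest, so the MUT range enclosed the WT range. The highest library was 2.46-fold above the lowest. Its coefficient of variation over the 6 libraries was 31.6%, and 11.7% of tested genes had a lower one, against a median of 70.6% for all genes tested. Those genes and the other members were not matched to Csn2 by level. Abundant mTEC markers ranged both less and more widely: H2-Aa ran from 5557 to 9619 CPM, and Krt5 from 264.2 to 1327 CPM. Aire and Csn2 were not ordered alike: MUT 3 had the highest Aire value, 1563 CPM, and the lowest Csn2 value. Over the 6 libraries Pearson's r of their log2 CPM was -0.18, against a median of -0.03 for other tested genes with Csn2. The part of Aire in the level of Csn2 was not tested.

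**Figure D2:**
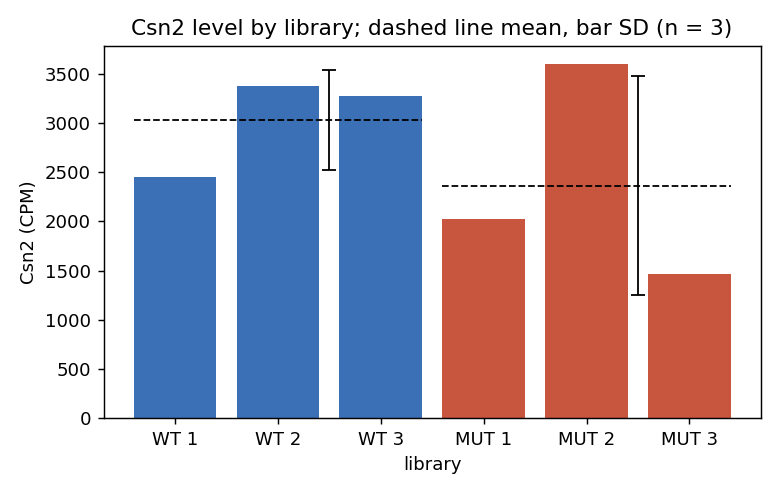
Csn2 in CPM by library (bars from 0), with the mean of each genotype as a dashed line and its SD (n = 3). The MUT libraries spread from 1466 to 3604 CPM and enclose the WT libraries, at 2449 to 3377 CPM.

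Csn1s2a, an alpha-S2 casein gene, was counted in every library at 922, 317 and 525 counts in WT and 378, 522 and 387 in MUT. WT 1 stood above the rest at 52.97 CPM, and the other libraries lay between 13.98 and 25.01 CPM. Csn3 had 45, 843 and 285 counts in WT and 205, 635 and 535 in MUT, a 15.4-fold range in CPM from WT 1, the lowest, to WT 2, the highest. Csn1s1, an alpha-S1 casein gene, had 95, 184 and 501 counts in WT and 161, 31 and 321 in MUT. Its highest library was WT 3 and its lowest MUT 2, a 14.8-fold range in CPM. The highest library thus differed between these 3 genes, although MUT 2 was the next highest for both Csn1s2a and Csn3. The genotypes overlapped for each gene.

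Csn1s2b, Wap and Lalba were near the limit of counting. Csn1s2b, the second alpha-S2 casein gene, had 50, 21 and 4 counts in WT and 0, 0 and 14 in MUT. Wap had 0, 40 and 4 counts in WT and 0, 41 and 38 in MUT, so that 3 libraries carried nearly all of its 123 counts. Lalba had 12 counts in MUT 3 and 0 in the other libraries, where 0 counts allow up to 3 counts, or 0.132 to 0.172 CPM in WT and 0.142 to 0.144 CPM in the remaining MUT libraries. Amplified reads are not independent molecules, so this limit covers counting error only. MUT 3, the library with the most genes detected, was the only library with counts of all 7 genes, and MUT 1 had counts of 4.

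The genes around the caseins were counted at low levels beside Csn2, but not beside the other caseins. Within 200 kb of the casein span, 27 other genes were annotated, 17 were in the table and 10 had at least 10 counts in some library. Sult1b1, Sult1d1 and Sult1e1, sulfotransferase genes beyond Csn1s1, had 1 to 179, 0 to 253 and 0 to 213 counts. Between Csn1s2b and Csn3 lay Prr27, with 0 to 43 counts, and Odam, which encodes a protein of the enamel and tooth junction, with 0 to 194 counts. Beyond Csn3, BC051076 had 20 to 306 counts, 2310003L06Rik 0 to 24, Cabs1 0 to 10 and Smr3a, a salivary gland gene, 0 to 23. The antisense gene 1700066N21Rik surrounds Csn3 and had 17 to 518 counts. The exons of 1700066N21Rik and Csn3 share 0 bp in GENCODE. Per kb of annotated exon, 1700066N21Rik had the highest mean of these neighbours, 17.1 CPM per kb against 389.7 for Csn2 on the same scale, as the plot of the cluster shows. The other caseins had 7.03 (Csn1s2a), 4.59 (Csn3), 1.52 (Csn1s1) and 0.178 (Csn1s2b), all below 1700066N21Rik. Odam, at 2.58, was also above Csn1s1 and Csn1s2b.

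**Figure D3:**
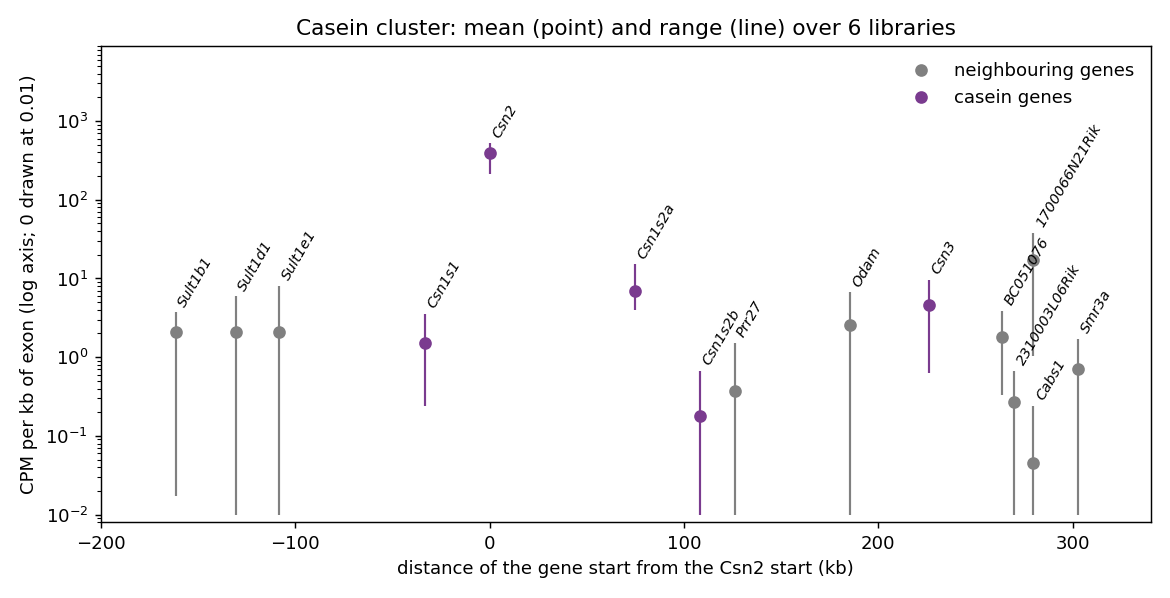
Mean (point) and range (line) in CPM per kb of annotated exon over the 6 libraries, on a log axis with 0 drawn at 0.01, for the caseins (purple) and the neighbouring genes with at least 10 counts in some library (grey), against the distance of each gene start from the Csn2 start in kb. Csn2 lies between 211.7 and 520.4 CPM per kb, and no other gene in the plot exceeds 38.0 CPM per kb.

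Between the genotypes, no milk protein gene passed the test. The comparison was MUT minus WT by edgeR's quasi-likelihood test over 17172 genes, with Benjamini-Hochberg adjustment. Over all genes 0 passed an adjusted p of 0.05, a share of 0%, and 597 genes, or 3.48%, had an unadjusted p under 0.05, 1.62% with a higher and 1.85% with a lower value in MUT. limma-voom called 0 genes, edgeR without a filter on low counts 73 (0.253% of the genes it tested) and DESeq2 116 (0.629%), and 0 of these were members. Of the 6 tested members, 0 had an unadjusted p under 0.05 and 0 had genotypes that did not overlap, against 9.35% of all genes tested. The adjusted p was 0.999875 for each of the 6.

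For Csn2, the mean was 3033 ± 508 CPM over the 3 WT libraries and 2365 ± 1109 CPM over the 3 MUT libraries (± SD). The log2 fold change was -0.36 (SE 0.34), with a 95% interval from -1.09 to 0.37, which is a MUT to WT ratio of 0.470 to 1.29. It was -0.80 without MUT 2 and -0.11 without MUT 3. Without MUT 2, edgeR's unadjusted p was 0.024 and its adjusted p 0.9998, and without MUT 3 the unadjusted p was 0.74. In bulk RNA, fewer cells that express a gene and less RNA per cell cannot be told apart.

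The other tested members had wider intervals. Csn1s2a measured 30.3 ± 20.02 and 18.9 ± 5.59 CPM in WT and MUT, with a log2 fold change of -0.68 (SE 0.75, 95% interval -2.31 to 0.95) that was -0.01 without WT 1. Csn1s1 measured 12.1 ± 8.80 and 6.89 ± 5.09 CPM, with -0.81 (SE 1.19, 95% interval -3.41 to 1.79) that was -0.03 without WT 3, -0.34 without MUT 2 and -1.41 without MUT 3. Csn3 measured 18.3 ± 19.2 and 19.8 ± 10.4 CPM, with 0.12 (SE 0.99, 95% interval -2.05 to 2.28) that was -0.40 without WT 1, -0.10 without WT 3, -0.34 without MUT 2 and 1.37 without WT 2. The values of Csn1s1 and Csn3 thus moved with more than 1 library, and Csn3 had no stable direction.

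The WT and MUT means of Wap were 0.687 ± 1.04 and 1.11 ± 1.01 CPM, and those of Csn1s2b 1.35 ± 1.38 and 0.169 ± 0.292 CPM. Their log2 fold changes were 0.69 (SE 2.35, 95% interval -4.43 to 5.81) and -2.93 (SE 2.41, 95% interval -8.18 to 2.32). Differences of several-fold in either direction lie within both intervals and were not detectable with these libraries. The fitted value of Wap was -0.01 without MUT 2 and 3.54 without WT 2, and that of Csn1s2b was -1.75 without WT 1. Of the 6 tested members, 2 had fitted values above 0 and 4 below, with a median log2 fold change of -0.52, against -0.01 for all genes tested, of which 49.4% lay above 0.

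**Figure D4:**
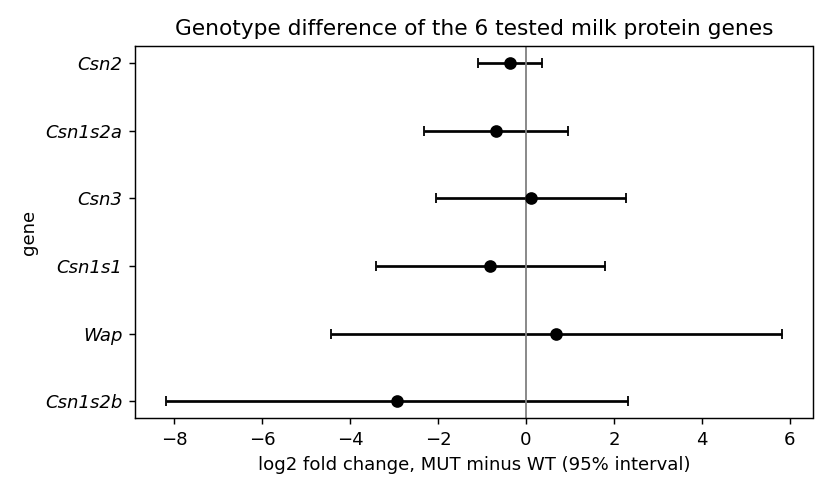
Log2 fold change, MUT minus WT, with its 95% interval from the edgeR fit, for the 6 tested milk protein genes. The interval of Csn2 runs from -1.09 to 0.37, the narrowest in the plot, and every interval includes 0.

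Same-numbered libraries, which share the ending of their source names, were also compared, though the labels do not say that they share a litter, batch or day. For Csn2 the log2 CPM difference, MUT minus WT, was -0.27, 0.09 and -1.16 for numbers 1, 2 and 3. For Csn1s1 it was 0.47, -2.47 and -0.92, for Csn1s2a -1.57, 0.74 and -0.72, and for Csn3 1.87, -0.38 and 0.62. None of these 4 genes kept one direction over the 3 numbers.

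No variation shared by the members as a group was seen over these 6 libraries. Among the 6 members with at least 10 counts in at least 3 libraries, 15 pairs were compared by log2 CPM over the 6 libraries. Pearson's r was above 0 for 6 pairs, with a median of -0.12 and a range from -0.78 to 0.88. After Benjamini-Hochberg adjustment over the 15 pairs, 0 passed 0.05 in the exact permutation test over 720 pairings, and 1 had an unadjusted p under 0.05. A single pairing has a share of 0.0014, so after adjustment only an extreme arrangement could pass. Failing this test therefore does not show that a pair varies independently.

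That pair was Csn3 and Wap, which lie on different chromosomes. Both were highest in WT 2 and MUT 2, then in MUT 3, and low in WT 3, MUT 1 and WT 1. WT 2 and MUT 2 share a number and a source name ending, and the permutation treats all 6 libraries as exchangeable. Pearson's r was 0.88 (exact permutation p = 0.0056, adjusted 0.083) and Spearman's rho 0.93 (exact permutation p = 0.022, adjusted 0.33), both two-sided. Without WT 1 and WT 2, the 2 libraries farthest from the median of Csn3, r was 0.96 over 4 libraries. Wap rests on 0 to 41 counts a library, with 2 libraries at 0.

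Summed markers of thymocytes and of dendritic cells and macrophages were also high in WT 2 and MUT 2. The 9 listed thymocyte markers summed to 469 CPM in WT 2 and 738 CPM in MUT 2, against 112 to 295 CPM in the other libraries, and 5 of the 9 were highest in these 2 libraries. The 8 dendritic cell and macrophage markers summed to 1090 and 965 CPM, against 520 to 616 CPM, and 2 of the 8 were highest in both. Those 2, Lyz2 and Cd68, made up most of the sum, at 721.6 and 201.1 CPM in WT 2 and 635.9 and 155.3 CPM in MUT 2. The rest of the list did not share this pattern: Adgre1 was lowest in MUT 2, at 1.725 CPM, and Csf1r in WT 2, at 17.94 CPM. MUT 3, the next library for Csn3 and Wap, had the lowest sum of each list. Of the thymocyte markers, Ptcra was at 0 counts in WT 1 and MUT 1. The lists for other cell types did not share this order. It was not particular to cell type markers, though. In WT 2, MUT 2 and MUT 3, WAP domain genes summed to 2531, 2210 and 600 CPM and lysozyme genes to 1414, 1110 and 603 CPM. Mammary secretion genes summed to 4372, 3750 and 1968 CPM. In each of these lists WT 2 and MUT 2 were highest and MUT 3 lowest. Some of their genes are shared between lists, such as Lyz2 and Wfdc18. The other related-gene lists did not share the order. MUT 2 had the highest sum of B cell, cortical epithelium and fibroblast markers, but WT 2 had the lowest of endothelial markers, 14.6 CPM. Adipocyte markers summed to 4.69 CPM in MUT 2 and to 72.6 CPM in MUT 1. Without WT 2 and MUT 2, r of Csn3 and Wap was 0.75 over 4 libraries. Wap then rested mostly on MUT 3, with 38 counts there, 4 in WT 3 and 0 in WT 1 and MUT 1. The part of other cells in the pattern of Csn3 and Wap was not tested.

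The lowest r was that of Csn1s2a and Csn3, -0.78 (exact permutation p = 0.071, adjusted 0.53, rho -0.49, exact permutation p = 0.36, adjusted 0.97), and it was -0.19 without WT 1 and MUT 3. Those 2 libraries were left out together. WT 1 held both the highest Csn1s2a value, 52.97 CPM, and the lowest Csn3 value, 2.59 CPM.

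**Figure D5:**
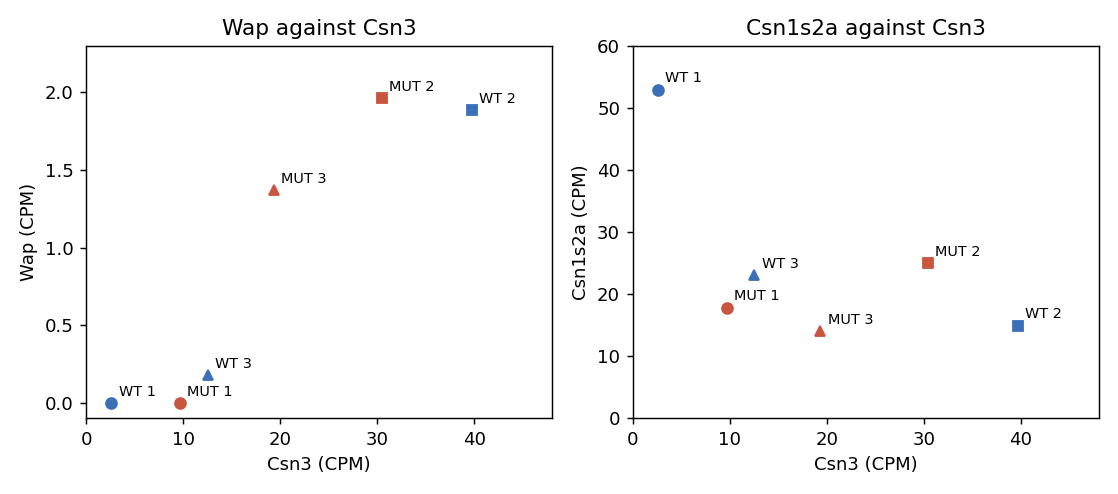
Wap (left) and Csn1s2a (right) against Csn3, in CPM, with 1 point per library, WT in blue and MUT in red. WT 2, MUT 2 and MUT 3 are high for both Csn3 and Wap, and WT 1 is alone at 52.97 CPM of Csn1s2a and 2.59 CPM of Csn3.

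Csn2 and Csn1s1, the neighbours that share the motif printed above, had r = -0.30 (exact permutation p = 0.57, adjusted 0.83) and rho -0.37 (exact permutation p = 0.497, adjusted 0.97), and r was -0.47 without WT 3 and MUT 2. Csn1s2a and Csn1s2b, the adjacent alpha-S2 genes, had r = 0.38 (exact permutation p = 0.48, adjusted 0.83) and rho 0.03 (exact permutation p = 0.98, adjusted 0.98), and r was -0.64 without WT 1 and MUT 3. Neither pair passed its test over these 6 libraries.

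The tested genes whose log2 CPM was most like that of Csn2 over the 6 libraries were Fabp1, the fatty acid-binding protein gene of liver and gut (Pearson's r 0.99, 6.79 to 65.4 CPM), Prelid1, a mitochondrial lipid transfer gene (0.98), Pnp2, a purine nucleoside phosphorylase gene (0.97), Sgk1, a kinase gene (0.97), and Mrpl34, of the mitochondrial ribosome (0.97). Pnp2 has a close copy next to it and its counts are uncertain. Over 17166 genes, 10 had r above 0.95, and 6 points allow such values among so many genes.

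Genes of lactation signalling were counted in these cells. Of 18 genes on the signalling list, 17 were tested, and 0 had an unadjusted p under 0.05 in edgeR's test. The genotypes did not overlap for 2 of the 17, Stat5a and Jak2, a share near the 9.35% of all genes tested. Stat5a measured 118.5, 148.0 and 129.0 CPM in WT and 149.4, 233.0 and 205.3 in MUT (log2 fold change 0.57, SE 0.35). Jak2, the kinase that the prolactin receptor uses, was also higher in all 3 MUT libraries, at 0.70 (SE 0.40), and had the smallest p of the list. Ybx1, a nucleic acid-binding protein gene, had the highest mean CPM of the list, at 215.1 to 325.0 CPM. The prolactin receptor gene Prlr measured 5.34, 24.9 and 37.1 CPM in WT and 48.2, 15.6 and 32.5 in MUT. Its lowest library, WT 1, was not the lowest for Csn2. The part of Prlr in the level of Csn2 was not tested. Elf5, a regulator of mammary alveolar cells, had 0, 7 and 15 counts in WT and 0, 70 and 12 in MUT.

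Of 30 genes of mammary secretion, 28 were tested, 0 passed the adjusted p and 3 had an unadjusted p under 0.05, all lower in MUT, against 1.85% of all genes in that direction. The genotypes did not overlap for 4 of the 28 that were lower in MUT and for 1, Glycam1, that was higher, against 9.35% of all genes tested in either direction. The median log2 fold change of the list was -0.03. Saa3, an acute-phase protein gene, had the smallest p of the list, with a log2 fold change of -1.01 (SE 0.41) and WT at 257.6 to 684.5 CPM against 147.4 to 304.1 CPM in MUT. Wfdc18, which has a WAP domain, had the highest mean CPM, at 403 to 1790 CPM. The milk fat globule gene Btn1a1 had 1 to 52 counts and Glycam1, a whey mucin gene, 0 to 32. The 8 listed markers of mammary epithelium summed to 625 to 1262 CPM in WT and 511 to 1075 CPM in MUT, and most of that sum was Krt18 (323 to 970 CPM) and Krt8 (133 to 271 CPM), keratins that thymic epithelium also expresses.

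Of the 15 listed genes of secretory calcium-binding phosphoproteins, the family of the caseins, 8 were tested, with a median log2 fold change of 0.59. Ambn, an enamel matrix gene, had 1, 0 and 8 counts in WT and 81, 188 and 72 in MUT (log2 fold change 5.16, SE 2.25, adjusted p 0.999875 by edgeR). It was tested through its MUT counts alone. Spp1, which encodes osteopontin, had the highest mean CPM of the listed genes. Of 7 lysozyme genes, the family of Lalba, 3 were tested, with a median of -0.45. Lyz1 and Lyz2 measured 218 to 689 and 384 to 722 CPM, while Lalba was at or near 0. Of 24 names listed for the WAP domain family, 22 were found among the gene IDs and 11 were tested, with a median of -0.13. Whether each gene holds the domain was not checked, as for Svs4, 1 of the 11. Wfdc3 had the smallest p, with 308, 4 and 104 counts in WT and 0, 0 and 20 in MUT. None of the genes in these 3 families passed edgeR's adjusted p.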

How the data were processed

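Raw read counts, 1 value per Ensembl gene ID and library, were deposited by the authors without normalization. Per the labels' protocols, RNA was amplified with the Nugen Ovation method and made into Nextera XT libraries. The submitters' processing notes name STAR 2.4.2a, DESeq2 1.26.0 and GRCm38. The strand setting is not given in the sources used here, nor is the counting program, so overlapping and antisense genes are uncertain.

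Symbols were found for 42462 of 43432 gene IDs, and 0 columns belonged to other samples. edgeR 4.0.16 (R 4.3.3) was fitted with filterByExpr (minimum count 10), TMM factors and a robust quasi-likelihood F-test, with genotype as the only term and Benjamini-Hochberg adjustment at 0.05 over all genes tested. CPM uses TMM-scaled totals, and log2 CPM a prior count of 2. No 2 libraries agreed within sampling noise (lowest chi-square per degree of freedom 84.4). The spread between libraries (biological coefficient of variation 1.01 in the edgeR fit) limits the precision, and so do the low counts of Csn1s2b, Wap and Lalba.

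In 3 simulations of this comparison over 17172 genes, edgeR called 12.4% of 4-fold, 51.8% of 16-fold and 69.3% of 64-fold changes, and at most 1 gene with none changed. Alternatives were DESeq2 size factors, upper-quartile factors, no filter, a filter at 30 counts, DESeq2 1.42.0, limma-voom (limma 3.58.1), the replicate block and each library left out.

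All 7 members were named. From each list of related genes, those with the smallest p and the highest mean CPM were named, with the 5 genes most like Csn2 and the neighbours with 10 counts. Stat5a, Prlr, Elf5, Btn1a1, Glycam1, Lyz1 and the marker genes were named after their values were seen. Members and lists were chosen with earlier results of these data known.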

Additional observations from a re-analysis of the deposited data

How the results depend on the processing

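Over 77 alternative values of the 6 tested members, 73 kept their direction, 4 reversed and 0 passed the threshold, with adjusted p from 0.729 upward. The reversals left out 1 library: Csn3 went from 0.12 to -0.40 without WT 1, -0.10 without WT 3 and -0.34 without MUT 2, and Wap from 0.69 to -0.0092 without MUT 2. With each library left out in turn, log2 fold changes ran from -0.80 to -0.11 for Csn2, -1.01 to -0.01 for Csn1s2a, -1.41 to -0.03 for Csn1s1, -0.40 to 1.37 for Csn3, -0.0092 to 3.54 for Wap and -7.80 to -1.75 for Csn1s2b, where the lowest value compares with MUT libraries at 0 counts and is no bound. The number of members above 0, 2 in all, ran from 0 to 2 over these fits. The count of genes past an adjusted p of 0.05, 0 in edgeR, became 73 without a filter, 116 with DESeq2 and 1 with the replicate block, none of them a member, and the cause was not tested. Correlations between members passed the threshold for 0 pairs on the log2(CPM + 1) scale and for deviations from the genotype means too, where r of Csn3 and Wap was 0.87 and 0.88. Leaving out WT 2 and MUT 2 together, an alternative chosen after seeing the data, gave r = 0.75 for that pair, with Wap then counted mostly in MUT 3. Correlations were not recomputed with 5 libraries.

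WT and MUT libraries of the same number share the ending of their source names, but the labels do not say what it marks. Same-numbered libraries deviated together with r from 0.059 to 0.13, although 6 of 6 libraries correlated best with their own number. The deviations were taken from the mean of 3 libraries per genotype, so these 6 matches are not independent of each other. With the replicate block the log2 fold change of Csn2 was -0.44, and no member's call changed. Lalba could not be fitted with a filter on low counts. Csn1s2b could not be fitted with the stricter one.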

Other observations

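Several genes on the lists had most of their counts in 1 library. These were chosen after their values were seen. Dspp, a dentin matrix gene of the family of the caseins, had 837 counts in MUT 2, 15 in MUT 3 and 0 in the other libraries. Mepe, of the same family, had 65 counts in WT 2, 211 in MUT 2 and 0 elsewhere. The lysozyme-like gene Lyzl4 had 144 counts in WT 3, 9 in MUT 3 and 0 elsewhere. Folr1, a folate receptor gene, had 1187 counts in MUT 2 against 2 to 114 in the others, and Olah, a fatty acid thioesterase gene of the mammary gland, had 362 in WT 1 against 1 to 55. Csn2, with 21.7% of its counts in its highest library, MUT 2, was spread more evenly.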
